A study of Sus scrofa with 8 samples.

Results

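Heart RNA of Tibetan and Yorkshire pigs kept at high altitude was compared in 4 of the 8 libraries of the series, 2 of Tibetan pigs (TH1 and TH2) and 2 of Yorkshire pigs (YH1 and YH2). The study raised both breeds in the highlands, at 3000 m above sea level, and in the lowlands, at 100 m, and asked which genes accompany the life of the Tibetan pig at altitude. All pigs of the 4 libraries are labelled male, the tissue is labelled heart, and the animals were 6 months old. Each library was made from RNA pooled in equal amounts from 4 pigs, and what differs between 2 libraries of one group is therefore a pair of pools, not single animals. The highland site was the same for both breeds, and no treatment was given. The chamber or wall of the heart that was taken is not given in the sources used here. Of 18975 genes listed, 11102 had at least 1 FPKM (fragments scaled to the length of the transcript and the depth of the library) in at least 2 of the 4 libraries and at least 10 scaled reads in 2 of them, and these are the genes compared. Of these, 177 reached 1 FPKM only in both TH libraries and 240 only in both YH libraries, and the direction of these genes was set by that filter.

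The heart works on oxygen at every beat and draws most of its energy from fatty acids, with glucose, lactate, ketone bodies and branched-chain amino acids as further fuels. Muscle cells of the heart answer load with a well-known set of genes, among them the natriuretic peptides, which are hormones that lower blood volume and pressure, the skeletal form of actin and growth factors of the matrix. Atrial and ventricular muscle differ in their myosin chains and in the peptides they secrete. Low oxygen acts in all cells through hypoxia-inducible factors, which prolyl hydroxylases mark for breakdown when oxygen is present.

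Between 15687000 and 26723000 reads fell on genes in the 4 libraries, as estimated from the smallest step between the scaled reads of a library, and TH1 was the deepest. Genes encoded by the mitochondrial genome took 57.7% to 87.6% of the summed FPKM, lowest in YH2 and highest in TH1. Across the genes compared, the correlation of log2(FPKM + 1) was 0.953 between TH1 and TH2, 0.982 between YH1 and YH2, and 0.916 to 0.959 between the groups. TH1 stood apart from TH2, with 97 genes lower in TH1 by more than 2 on the log2 scale and 4 genes higher. The same counts were 13 and 9 between YH1 and YH2. The defining genes of heart muscle were high in all 4 libraries. ACTC1, the cardiac alpha-actin, was at 2717 FPKM in TH1, 2039 in TH2, 838 in YH1 and 1276 in YH2. The 12 kidney markers summed to at most 17.2 FPKM and the 6 lung markers to at most 1.38 FPKM in the 4 libraries. Y-linked genes were read in all 4 libraries, and DDX3Y, a Y-linked RNA helicase, was at 34.1 FPKM in TH1, 20.9 in TH2, 10.5 in YH1 and 9.93 in YH2. In this measure both TH libraries were above both YH libraries (log2 fold change 1.31 ± 0.26, adjusted p = 0.051).

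Differences were tested with limma on log2(FPKM + 1) with 1 term per group, and a gene was called at a Benjamini-Hochberg adjusted p under 0.05 over all 11102 genes and with a log2 fold change beyond 1 in either direction. The fit used 7 libraries, the 4 compared and TL1, TL2 and YL1 of the lowland groups. The TL pair adds to the estimate of the spread, and YL1, alone in its group, does not. The other lowland library, YL2, held genes of kidney and was left out. The labels of YL1 and YL2 point to the table of the TL group, and their columns were taken by the library names in the table of all libraries. The added 1 makes fold changes too small for genes near or under 1 FPKM, and errors are standard errors of the fit. Values of a gene are given in the order TH1 and TH2 against YH1 and YH2.

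In TH against YH, 151 genes were higher and 199 were lower, 3.15% of the genes tested (1.36% higher and 1.79% lower). The median log2 fold change of all genes tested was -0.03. Of the called genes, 38 of the 151 and 51 of the 199 had passed the filter only through the group in which they were higher. In every called gene both TH libraries lay on the same side of both YH libraries, but so did 53.3% of all genes tested, with 25.6% above and 27.6% below. These shares, and those of the called genes, are the background for the counts of every list below. The adjusted p-values of the called genes ran from 0.00854 to 0.0497, and 3 of the 350 were under 0.01. With 2 libraries a group the lowest two-sided p of an exact permutation test is 0.333, and the calls come from a fit across all genes. Their number changed with the processing and with the libraries in the fit. Scaling to equal FPKM sums gave 16 higher and 87 lower, and no filter on low values gave 13 and 12. A fit of the 4 libraries alone called 14 genes higher and 10 lower, a fit of all 8 libraries called 24 and 19, and without YH1 or without YH2 no gene was called, although 1406 and 1638 genes had an unadjusted p below 0.05. Without TH1 the counts were 113 and 146, and without TH2 they were 774 and 1322. Of the 350 genes, 23 were also called with the 4 libraries alone, and 17 of these with all 8 as well. Of the 17, CCDC3, CTGF, FOS, HAMP, LOXL1, NPPA and SPAG11 were higher in TH, and GNLY and ENSSSCG00000025934 lower. The other 8, ANXA8, C2ORF54, CHI3L1 and CRTAC1, higher, and CD2, IGLV-3, IGLV-9 and ENSSSCG00000026162, lower, had passed the filter only through the group in which they were higher.

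**Figure D1:**
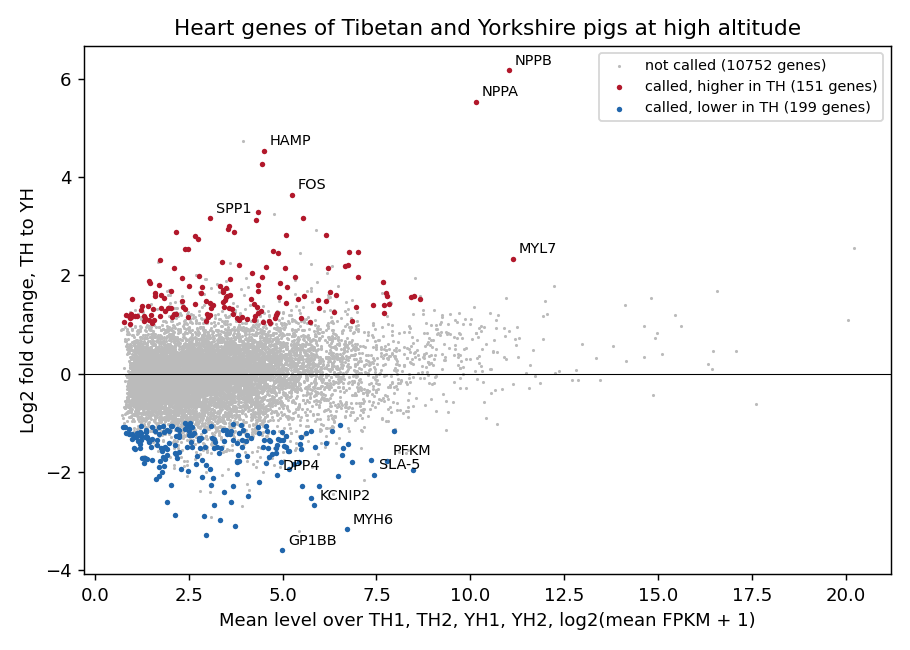
Log2 fold change of TH to YH (vertical) against the mean level over the 4 highland libraries as log2(mean FPKM + 1) (horizontal), 1 point per gene, with 151 genes called higher in red and 199 called lower in blue. NPPB and NPPA stand far above the other genes at their level, and MYH6, KCNIP2 and GP1BB lie at the lower edge.

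The natriuretic peptides rose the most among genes with a symbol. NPPB, the B-type natriuretic peptide (ENSSSCG00000003431, Sscrofa10.2 chromosome 6, 65840060 to 65841530), was at 4963 FPKM in TH1, 3264 in TH2, 16.1 in YH1 and 180 in YH2. Its log2 fold change was 6.18 with an adjusted p of 0.0476 on a standard error of 1.19, and both TH libraries were far above both YH libraries, of which YH2 was well above YH1. NPPA, the atrial natriuretic peptide (chromosome 6, 65830301 to 65830859), stood at 2263 FPKM in TH1, 2146 in TH2, 23.1 in YH1 and 93.1 in YH2 (log2 fold change 5.53 ± 0.63, adjusted p = 0.0241). Both TH libraries were nearly equal and both YH libraries were low.

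Other genes of the same hormone system moved the other way. CORIN, the protease that cuts the NPPA precursor, fell with 3.84 and 4.32 against 10.4 and 14.3 FPKM (log2 fold change -1.38 ± 0.22, adjusted p = 0.0356). MME, or neprilysin, which breaks natriuretic peptides down, was lower too, with 0.447 and 1.04 against 5.1 and 3.31 FPKM (log2 fold change -1.58 ± 0.26, adjusted p = 0.038). Of the 9 genes of the natriuretic peptide system that were tested, NPPA and NPPB were thus called higher, CORIN and MME lower, and 5 were not called, and the median of the list was 0.17 (-0.60 after scaling to equal FPKM sums and -0.04 without YH1).

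Genes that mark atrial muscle were the second group with large rises. HAMP, the iron hormone hepcidin, was at 35.2 FPKM in TH1, 50.3 in TH2, 0.116 in YH1 and 2.09 in YH2 (log2 fold change 4.54 ± 0.48, adjusted p = 0.0209). SLN, or sarcolipin, an inhibitor of the calcium pump in atrial muscle, was at 56.5 FPKM in TH1, 16.3 in TH2, 2.11 in YH1 and 2.33 in YH2 (log2 fold change 3.29 ± 0.53, adjusted p = 0.0364). MYL7, the atrial regulatory light chain of myosin, was at 4283 FPKM in TH1, 3207 in TH2, 576 in YH1 and 932 in YH2 (log2 fold change 2.34 ± 0.39, adjusted p = 0.0383). The TH libraries were above the YH libraries in all of these genes, and SLN differed more between TH1 and TH2 than the others did.

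DKK3, a secreted protein of the Dickkopf family, rose as well (25.4 and 31.3 against 6.66 and 5.51 FPKM, log2 fold change 2.05 ± 0.22, adjusted p = 0.0228). Of 14 atrial markers tested, NPPA, HAMP, SLN, MYL7 and DKK3 were called higher (1.36% of all genes were) and none lower. Both TH libraries were below both YH libraries in 2 uncalled markers (27.6% of all genes). The median log2 fold change was 0.53, which turned to -0.10 after scaling to equal FPKM sums. The other 9 were not called. Among them MYL4, the atrial essential light chain, was at 7.59 FPKM in TH1, 6.73 in TH2, 3.48 in YH1 and 3.54 in YH2, both TH libraries above both YH libraries at low levels (log2 fold change 0.85 ± 0.37, adjusted p = 0.213). The summed FPKM of the atrial markers was 6898 in TH1, 5691 in TH2, 819 in YH1 and 1281 in YH2, and without NPPA and MYL7 it was 352 in TH1, 337 in TH2, 220 in YH1 and 256 in YH2. None of 8 ventricular markers was called, and their median was -0.25. MYH6, the myosin heavy chain of the atria, was lower in TH, as given below. Whether the pools held unequal shares of atrial muscle was not tested, and in bulk tissue fewer cells of a type and less RNA per cell cannot be told apart.

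**Figure D2:**
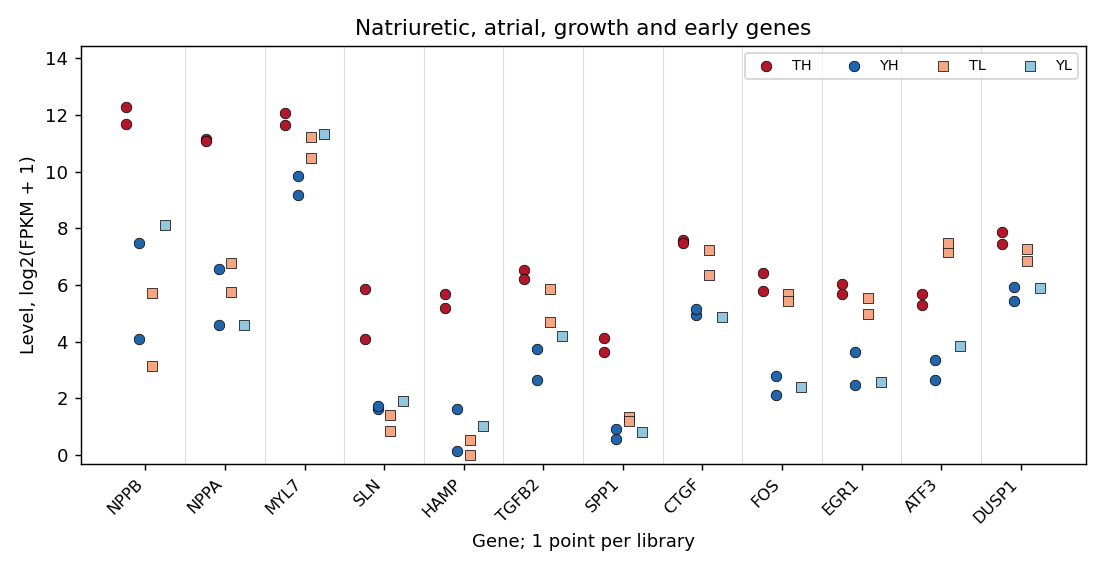
Levels of 12 genes as log2(FPKM + 1), 1 point per library, for TH and YH (circles) and the lowland libraries TL1, TL2 and YL1 (squares). NPPB, NPPA, SLN, HAMP and SPP1 are higher in both TH libraries than in any other library, while FOS, EGR1 and ATF3 are high in TL as well.

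Of 18 genes known for stretch and growth of heart muscle, 4 were called higher (1.36% of all genes were), NPPA and NPPB among them, and none was called lower. Among the uncalled genes, 4 had both TH libraries below both YH libraries, as 27.6% of all genes did. TGFB2, a growth factor that drives matrix formation, was at 91 FPKM in TH1, 73.2 in TH2, 12.3 in YH1 and 5.34 in YH2 (log2 fold change 3.17 ± 0.47, adjusted p = 0.0334). SPP1, or osteopontin, a matrix protein of injured heart, was at 16.7 FPKM in TH1, 11.6 in TH2, 0.484 in YH1 and 0.88 in YH2 (log2 fold change 3.16 ± 0.24, adjusted p = 0.0103). In TGFB2 every TH library was more than 5 times above every YH library, while SPP1 had passed the filter only through TH, which left 3 called of 17 without it. TIMP1, an inhibitor of matrix proteases, missed the threshold with 150 and 77.8 against 15.8 and 41 FPKM (log2 fold change 2.04 ± 0.47, adjusted p = 0.0687). The median of the 18 genes was 1.16, and it was 0.35 without YH1 and 0.24 after scaling to equal FPKM sums.

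The early response genes, which cells switch on within minutes of a stimulus, were higher in TH as a group. Of 30 tested, 9 were called higher (1.36% of all genes were) and none lower. Of the 30, 28 had a log2 fold change above 0 (47.8% of all genes did), and the median was 1.11 (0.24 after scaling to equal FPKM sums). FOS, a subunit of the AP-1 transcription factor (chromosome 7, 104293656 to 104297121), was at 53.8 FPKM in TH1, 85.5 in TH2, 3.4 in YH1 and 5.91 in YH2 (log2 fold change 3.64 ± 0.31, adjusted p = 0.0166). EGR1, a zinc finger factor, was at 51.1 FPKM in TH1, 65.5 in TH2, 4.58 in YH1 and 11.5 in YH2 (log2 fold change 2.82 ± 0.40, adjusted p = 0.0314). ATF3, a stress-induced factor of the same dimer family as FOS, was at 38.8 FPKM in TH1, 50 in TH2, 5.24 in YH1 and 9.16 in YH2 (log2 fold change 2.50 ± 0.29, adjusted p = 0.0241). The TH libraries exceeded the YH libraries in each of them, and YH2 was above YH1.

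The growth-related members moved likewise. CTGF, a secreted matrix factor, was at 192 FPKM in TH1, 176 in TH2, 29.7 in YH1 and 34.7 in YH2 (log2 fold change 2.48 ± 0.31, adjusted p = 0.0283). CYR61, its close relative, was at 178 FPKM in TH1, 170 in TH2, 30.6 in YH1 and 43.9 in YH2 (log2 fold change 2.22 ± 0.27, adjusted p = 0.0276). DUSP1, a phosphatase that ends MAP kinase signals, was at 172 FPKM in TH1, 232 in TH2, 42.7 in YH1 and 60.1 in YH2 (log2 fold change 1.96 ± 0.28, adjusted p = 0.0314). These 3 genes were among the most abundant early genes, and their libraries did not overlap between breeds. JUNB (51.1 and 53.6 against 6.44 and 18.1 FPKM, adjusted p = 0.0497), IER2 (12.8 and 20.2 against 3.71 and 4.55 FPKM, adjusted p = 0.0444) and EGR2 (2.53 and 3.13 against 0.283 and 0.69 FPKM, adjusted p = 0.0497) passed the test near its threshold. EGR2 had passed the filter only through TH, and without it 8 of 29 early genes were called, with a median of 1.05. SLPI, a protease inhibitor of secretions that is listed with the glucocorticoid targets, was at 135 FPKM in TH1, 113 in TH2, 11.3 in YH1 and 24.1 in YH2 (log2 fold change 2.82 ± 0.34, adjusted p = 0.0263). With DUSP1 it made 2 called of 21 glucocorticoid receptors and targets tested.

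The lowland libraries give these same genes side by side. FOS was at 50.9 FPKM in TL1, 42 in TL2 and 4.3 in YL1, and SLPI at 124 FPKM in TL1, 135 in TL2 and 14 in YL1, so that in both the TL libraries lay far above YL1. NPPB was at 7.75 FPKM in TL1, 51.7 in TL2 and 278 in YL1, and the single YL1 library was above both TL libraries. SPP1 was at 1.53 FPKM in TL1, 1.3 in TL2 and 0.77 in YL1, and all 3 lowland values were low.

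The TGF-beta, CCN and matrix receptor genes had 5 of 21 called higher, against 1.36% of all genes, and none lower, with a median of 0.47 (-0.40 after scaling to equal FPKM sums). Beside TGFB2, CTGF and CYR61 these were CD151, a tetraspanin that binds integrins, and TGM2, a transglutaminase that crosslinks matrix proteins. CD151 was at 324 FPKM in TH1, 329 in TH2, 94.7 in YH1 and 112 in YH2 (log2 fold change 1.65 ± 0.20, adjusted p = 0.0281). TGM2 was at 145 FPKM in TH1, 165 in TH2, 68.4 in YH1 and 78 in YH2 (log2 fold change 1.07 ± 0.20, adjusted p = 0.0435). The libraries of a breed were close together in both. CD44, the receptor of hyaluronan, did not pass, with 75.5 and 81.1 against 13 and 42.6 FPKM (log2 fold change 1.68 ± 0.50, adjusted p = 0.114). ITGA5, an integrin subunit that binds fibronectin, was at 202 FPKM in TH1, 173 in TH2, 79.5 in YH1 and 2151 in YH2, and its YH2 value was the highest of the 4 by more than 10 times, while on scaled reads its log2 fold change was 0.63.

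Collagens and matrix proteins differed widely between TH1 and TH2. Of 41 tested, 14 had both TH libraries above both YH libraries and 1 had both below (25.6% and 27.6% of all genes did). The called gene was BGN, the proteoglycan biglycan, at 258 FPKM in TH1, 178 in TH2, 28 in YH1 and 51.4 in YH2 (log2 fold change 2.47 ± 0.34, adjusted p = 0.0305). COL3A1, a fibrillar collagen, was at 18.2 FPKM in TH1, 172 in TH2, 52.1 in YH1 and 68.1 in YH2 (log2 fold change -0.07 ± 0.89, adjusted p = 0.965), with TH2 high, TH1 low and both YH libraries between them. FN1, or fibronectin, was at 8.59 FPKM in TH1, 31.4 in TH2, 5.38 in YH1 and 6.19 in YH2 (log2 fold change 1.38 ± 0.51, adjusted p = 0.165). The median of the 41 genes was 0.42, but 1.1 without TH1 and -0.29 without TH2. Of 13 fibroblast markers only THY1 was called, higher (34.7 and 39.3 against 13.9 and 18.8 FPKM, log2 fold change 1.14 ± 0.22, adjusted p = 0.0468), and their median of -0.19 became 1.18 without TH1 and -1.23 without TH2. The direction of the fibroblast and collagen lists therefore depended on which TH library was used.

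Annexins and S100 proteins, which bind calcium and membranes, had 4 of 18 called higher, against 1.36% of all genes, and none lower. Their median was 0.72 (-0.10 after scaling to equal FPKM sums). ANXA8, which had passed the filter only through TH (3 called of 17 without it, median 0.69), was at 11.1 FPKM in TH1, 9.24 in TH2, 0.392 in YH1 and 0.82 in YH2 (log2 fold change 2.81 ± 0.23, adjusted p = 0.0126). ANXA2 was at 355 FPKM in TH1, 275 in TH2, 59.6 in YH1 and 123 in YH2 (log2 fold change 1.86 ± 0.35, adjusted p = 0.0463). S100A6 was at 33.5 FPKM in TH1, 32.8 in TH2, 4.68 in YH1 and 12.4 in YH2 (log2 fold change 1.97 ± 0.38, adjusted p = 0.0479), and 1 of the 2 rows of S100A11 was called (29.2 and 28.6 against 9.14 and 14.2 FPKM).

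Further large rises were in genes outside the lists. CRTAC1, a secreted protein of cartilage, was at 7.02 FPKM in TH1, 6.74 in TH2, 0 in YH1 and 0.129 in YH2 for one of its rows (log2 fold change 2.89 ± 0.18, adjusted p = 0.00854), and CHI3L1, a secreted chitinase-like protein, was at 11.3 FPKM in TH1, 10.1 in TH2, 0.762 in YH1 and 0.728 in YH2 (log2 fold change 2.74 ± 0.18, adjusted p = 0.00854). Both genes had YH libraries below 1 FPKM and had passed the filter only through TH, which set their direction. CCDC3 was at 25.5 FPKM in TH1, 43.3 in TH2, 3.05 in YH1 and 2.86 in YH2 (log2 fold change 3.12 ± 0.30, adjusted p = 0.0208). SPAG11, which encodes peptides related to defensins, was at 24.4 FPKM in TH1, 15.5 in TH2, 1.09 in YH1 and 2.12 in YH2 (log2 fold change 3.00 ± 0.29, adjusted p = 0.0208). IRX6, a homeobox factor, (19.4 and 19.5 against 2.28 and 1.15 FPKM, log2 fold change 2.95 ± 0.38, adjusted p = 0.0283) and YBX2, a protein that binds DNA and RNA in germ cells, (31.3 and 12.9 against 0.895 and 3.36 FPKM, log2 fold change 2.88 ± 0.50, adjusted p = 0.0407) completed the 12 largest rises with a symbol. Of the 151 genes called higher, 7 had no symbol, and ENSSSCG00000028909 (53.1 and 27.5 against 3.22 and 0 FPKM) and ENSSSCG00000027743 (5.43 and 10.6 against 0.386 and 0.607 FPKM) changed the most of these, the latter with the filter passed only through TH.

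Genes for the cytosolic ribosome were nearly all on the higher side in TH, but only RPL3 was called. It was at 575 FPKM in TH1, 451 in TH2, 143 in YH1 and 203 in YH2 (log2 fold change 1.57 ± 0.26, adjusted p = 0.0371). RPS18 was at 2083 FPKM in TH1, 1123 in TH2, 512 in YH1 and 706 in YH2 (log2 fold change 1.35 ± 0.36, adjusted p = 0.0885), and TH1 was well above TH2. Of 75 rows tested, 74 had a log2 fold change above 0 and 66 had both TH libraries above both YH libraries (47.8% and 25.6% of all genes did). The median was 0.83, 0.43 without TH1, 1.24 without TH2, and -0.16 once libraries were scaled to equal FPKM sums, a scaling under which the median of all genes was -0.53. The direction of this group thus turned with that scaling. Many ribosomal genes have processed copies that can share their reads, so single rows are uncertain.

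Among the contractile genes the changes went both ways. MYH6, the alpha heavy chain of myosin (chromosome 7, 81051891 to 81061132), was at 20.6 FPKM in TH1, 18.4 in TH2, 246 in YH1 and 135 in YH2 (log2 fold change -3.16 ± 0.42, adjusted p = 0.0286), with both TH libraries far below both YH libraries. TNNT1, the troponin T of slow skeletal muscle, was higher, at 339 FPKM in TH1, 249 in TH2, 129 in YH1 and 117 in YH2 (log2 fold change 1.23 ± 0.23, adjusted p = 0.0438). MYOM3, a protein of the M-band, was lower, at 13.8 FPKM in TH1, 21.4 in TH2, 46.4 in YH1 and 44.5 in YH2 (log2 fold change -1.35 ± 0.24, adjusted p = 0.0431). With MYL7 these made 2 higher and 2 lower of 23 sarcomere genes tested, and the median was -0.13.

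Of 23 rows of the Z-disc and its scaffold, 3 were called lower (1.79% of all genes were) and none higher. The list went both ways, with a log2 fold change above 0 in 13 rows and below 0 in 10. Its median was 0.06 (-0.78 after scaling to equal FPKM sums). LDB3, which ties alpha-actinin to kinases, was at 156 FPKM in TH1, 150 in TH2, 335 in YH1 and 359 in YH2 (log2 fold change -1.17 ± 0.21, adjusted p = 0.0431). MYPN, or myopalladin, was at 8.66 FPKM in TH1, 12.7 in TH2, 31.7 in YH1 and 42 in YH2 (log2 fold change -1.70 ± 0.28, adjusted p = 0.0371). SYNPO2, a partner of filamin, was at 8.86 FPKM in TH1, 15.3 in TH2, 32.6 in YH1 and 30.2 in YH2 (log2 fold change -1.35 ± 0.27, adjusted p = 0.0497). TH1 and TH2 lay below YH1 and YH2 in all of these, while PDLIM3, another Z-disc protein, was at 236 FPKM in TH1, 351 in TH2, 76.6 in YH1 and 210 in YH2 (log2 fold change 1.18 ± 0.58, adjusted p = 0.262). Of 3 skeletal muscle genes tested, TNNC2, a fast troponin C, was higher (3.24 and 3.41 against 0.147 and 0.277 FPKM, log2 fold change 1.84 ± 0.18, adjusted p = 0.0208, with the filter passed only through TH) and MYL1, a fast myosin light chain, lower (2.27 and 0.745 against 10.9 and 18.5 FPKM, log2 fold change -2.67 ± 0.39, adjusted p = 0.0314).

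KCNIP2, a subunit of the channels that carry the transient outward potassium current of the heart, was the called gene of 21 ion channel genes. It was at 15.2 FPKM in TH1, 13.5 in TH2, 119 in YH1 and 78.4 in YH2 (log2 fold change -2.67 ± 0.28, adjusted p = 0.0208), with both TH libraries far below both YH libraries. LRRC39, a protein of the M-band, (39 and 51.7 against 141 and 146 FPKM, log2 fold change -1.65 ± 0.21, adjusted p = 0.0283) and ITGB1BP2, or melusin, a muscle partner of integrin, (58.3 and 56 against 129 and 185 FPKM, log2 fold change -1.42 ± 0.26, adjusted p = 0.0435) were the other muscle genes among the 10 most abundant genes called lower.

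Several genes of fuel use were called lower in TH and none of 3 lists held a gene called higher. Of 39 genes of the TCA cycle, ketone use and branched-chain amino acid breakdown, 6 were called lower (1.79% of all genes were) and none higher. Of the 39, 37 had a log2 fold change below 0 (52.2% of all genes did) and 32 had both TH libraries below both YH libraries (27.6% did). The median was -0.58 (-0.63 without TH1 and -0.53 without TH2). The called genes belong to branched-chain and ketone breakdown and not to the cycle itself. ALDH6A1, a dehydrogenase of valine breakdown, was at 1.72 FPKM in TH1, 5.77 in TH2, 19 in YH1 and 20.7 in YH2 (log2 fold change -2.28 ± 0.40, adjusted p = 0.0416). PCCA, a subunit of propionyl-CoA carboxylase, was at 3.82 FPKM in TH1, 6.95 in TH2, 22.2 in YH1 and 18.1 in YH2 (log2 fold change -1.77 ± 0.27, adjusted p = 0.0348). BCKDHB, a subunit of the branched-chain ketoacid dehydrogenase, was at 10.9 FPKM in TH1, 15.6 in TH2, 31.2 in YH1 and 40.1 in YH2 (log2 fold change -1.37 ± 0.24, adjusted p = 0.0413). Their TH libraries were all below their YH libraries, and TH1 was the lowest of the 4.

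Other called genes of the list had closer replicates. BDH1, which converts hydroxybutyrate and acetoacetate, was at 16.9 FPKM in TH1, 14.6 in TH2, 44.7 in YH1 and 36.9 in YH2 (log2 fold change -1.32 ± 0.20, adjusted p = 0.0344). ACAD8, a dehydrogenase of valine breakdown, was at 6.29 FPKM in TH1, 6.98 in TH2, 15.6 in YH1 and 16.5 in YH2 (log2 fold change -1.16 ± 0.18, adjusted p = 0.0348). In both, the TH libraries were under all YH values. CS, the citrate synthase that opens the cycle, had the same order of libraries (43 and 59.6 against 100 and 118 FPKM) and missed the threshold (log2 fold change -1.08 ± 0.23, adjusted p = 0.0578).

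**Figure D3:**
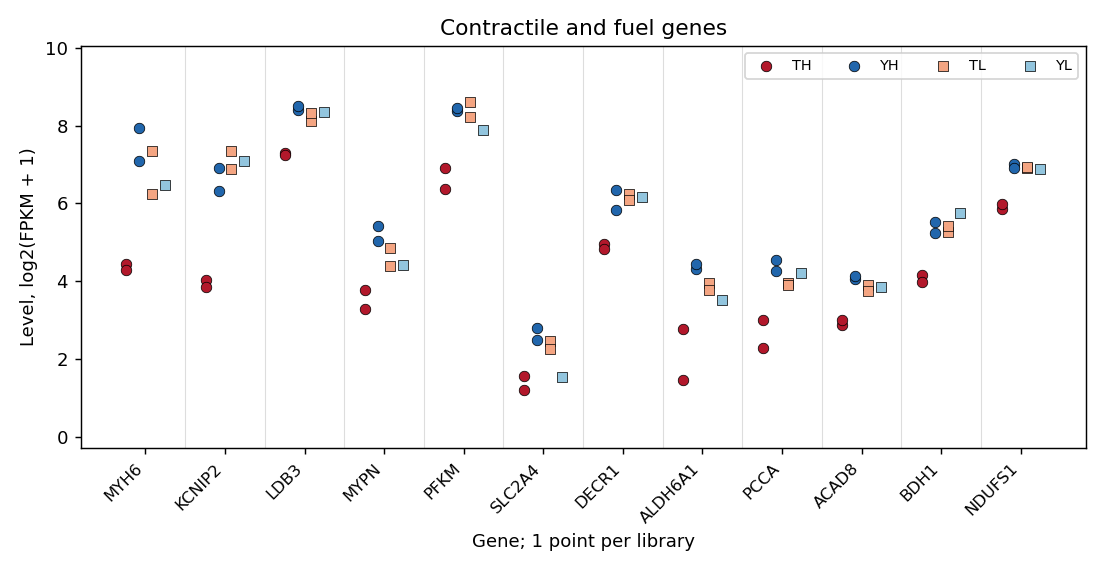
Levels of 12 contractile, channel and fuel genes called lower in TH, as log2(FPKM + 1), 1 point per library, for TH and YH (circles) and TL1, TL2 and YL1 (squares). Both TH circles lie below both YH circles in each gene, and the lowland squares lie nearer to YH than to TH in MYH6, KCNIP2, BDH1 and NDUFS1.

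In fatty acid uptake and oxidation 3 of 34 genes were called lower, against 1.79% of all genes, and none higher, with a median of -0.60. DECR1, the reductase that prepares unsaturated fatty acids for oxidation, was at 29.7 FPKM in TH1, 27.2 in TH2, 79.8 in YH1 and 55.5 in YH2 (log2 fold change -1.20 ± 0.23, adjusted p = 0.0478). UCP2 was at 6.11 FPKM in TH1, 5.56 in TH2, 13.3 in YH1 and 16.8 in YH2 (log2 fold change -1.23 ± 0.21, adjusted p = 0.0387). UCP3, the other uncoupling protein called, had passed the filter only through YH (2 called of 33 without it) and was at 0.264 FPKM in TH1, 0.0831 in TH2, 3.08 in YH1 and 2.63 in YH2 (log2 fold change -1.72 ± 0.19, adjusted p = 0.0234). The libraries did not overlap between breeds, and UCP3 was under 1 FPKM in TH. ETFA, which passes electrons from these dehydrogenases to the respiratory chain, had 69.7 and 102 against 198 and 183 FPKM and was not called (log2 fold change -1.17 ± 0.24, adjusted p = 0.0559).

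Glycolysis, glycogen and pyruvate entry had 3 of 40 genes called lower, against 1.79% of all genes, and none higher, with a median of -0.49. PFKM, the muscle phosphofructokinase that commits glucose to glycolysis, was at 82.1 FPKM in TH1, 120 in TH2, 330 in YH1 and 350 in YH2 (log2 fold change -1.77 ± 0.27, adjusted p = 0.0344). Of 2 rows of SLC2A4, the insulin-dependent glucose transporter, 1 was called (1.28 and 1.97 against 4.58 and 5.99 FPKM, log2 fold change -1.26 ± 0.23, adjusted p = 0.0431), and the other was not (70.8 and 37.8 against 59.4 and 56.9 FPKM, log2 fold change -0.16 ± 0.30, adjusted p = 0.75). PHKA1, a subunit of phosphorylase kinase, was at 6.99 FPKM in TH1, 8 in TH2, 16.7 in YH1 and 15.8 in YH2 (log2 fold change -1.03 ± 0.20, adjusted p = 0.0497). Both TH libraries were the lower ones in each called row. LDHB, the lactate dehydrogenase of heart, was at 1004 FPKM in TH1, 920 in TH2, 1614 in YH1 and 1984 in YH2 and did not pass (log2 fold change -0.90 ± 0.26, adjusted p = 0.111).

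Of 72 nuclear rows of the respiratory chain, 2 were called lower and none higher. A log2 fold change above 0 was found in 48 rows (47.8% of all genes had one). Both TH libraries were below both YH libraries in 13 rows and above them in 6, against 27.6% and 25.6% of all genes. The median was 0.17, and it was -0.22 without TH1, 0.55 without TH2 and -0.80 after scaling to equal FPKM sums. NDUFS1, a core subunit of complex I, was at 56.8 FPKM in TH1, 61.7 in TH2, 127 in YH1 and 118 in YH2 (log2 fold change -1.04 ± 0.19, adjusted p = 0.0435), and 1 of 2 rows of ATP5J, a small subunit of ATP synthase, was called at low levels after passing the filter only through YH (0.616 and 0.381 against 5.06 and 3.26 FPKM, log2 fold change -1.77 ± 0.28, adjusted p = 0.0359). None of 13 mitochondrially encoded genes was called, and their median of 0.46 was 0.01 without TH1 and -0.53 after scaling to equal FPKM sums. Of 65 rows of the mitochondrial ribosome, MRPL39 was called lower (14.7 and 11.6 against 35.2 and 34.5 FPKM, log2 fold change -1.35 ± 0.21, adjusted p = 0.0345).

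Genes of T and natural killer cells were lower in TH than in YH. Of 13 markers tested, 9 were called lower (1.79% of all genes were) and none higher. Of the 13, 8 had both TH libraries under 1 FPKM and passed the filter only through YH, so that it fixed their direction. The other 5 also had both TH libraries below both YH libraries, and 2 of them were called. The median was -1.43 over the 13 and -1.33 over these 5, and with 1 library left out that of the 5 ran from -1.60 to -1.08. CD2, an adhesion molecule of T cells, was at 0.491 FPKM in TH1, 0.276 in TH2, 4.18 in YH1 and 4.82 in YH2 (log2 fold change -1.99 ± 0.22, adjusted p = 0.0231). CD3E, a chain of the T cell receptor complex, was at 1.69 FPKM in TH1, 0.858 in TH2, 6.6 in YH1 and 9.08 in YH2 (log2 fold change -1.97 ± 0.25, adjusted p = 0.0283). CD8A, the co-receptor of cytotoxic T cells, was at 0.457 FPKM in TH1, 0.476 in TH2, 3.15 in YH1 and 3.17 in YH2 (log2 fold change -1.50 ± 0.23, adjusted p = 0.0348). These genes are at a few FPKM or less, so the counts behind them are small beside those of muscle genes.

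Other members of the list had the same order, which for most of the called ones the filter had fixed. CD3D, CD3G, GZMA, NKG7, CD5 and LCK were called lower with log2 fold changes of -1.52, -1.43, -1.53, -1.33, -1.21 and -1.18. CCL5, a chemokine of activated T cells, was at 28.2 FPKM in TH1, 13.6 in TH2, 40.1 in YH1 and 46.4 in YH2, all TH below all YH, and did not pass (log2 fold change -1.10 ± 0.33, adjusted p = 0.116). Outside the list, GNLY, or granulysin, a cytotoxic protein of these cells, was at 1.17 FPKM in TH1, 1.39 in TH2, 18.1 in YH1 and 15.8 in YH2 (log2 fold change -2.98 ± 0.30, adjusted p = 0.0208). The summed FPKM of the 17 markers was 39.1 in TH1, 23.6 in TH2, 86.6 in YH1 and 98.1 in YH2. Whether the hearts held fewer such cells was not tested. None of 10 macrophage and myeloid markers was called (median -0.37), and none of 13 endothelial markers (median -0.09).

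**Figure D4:**
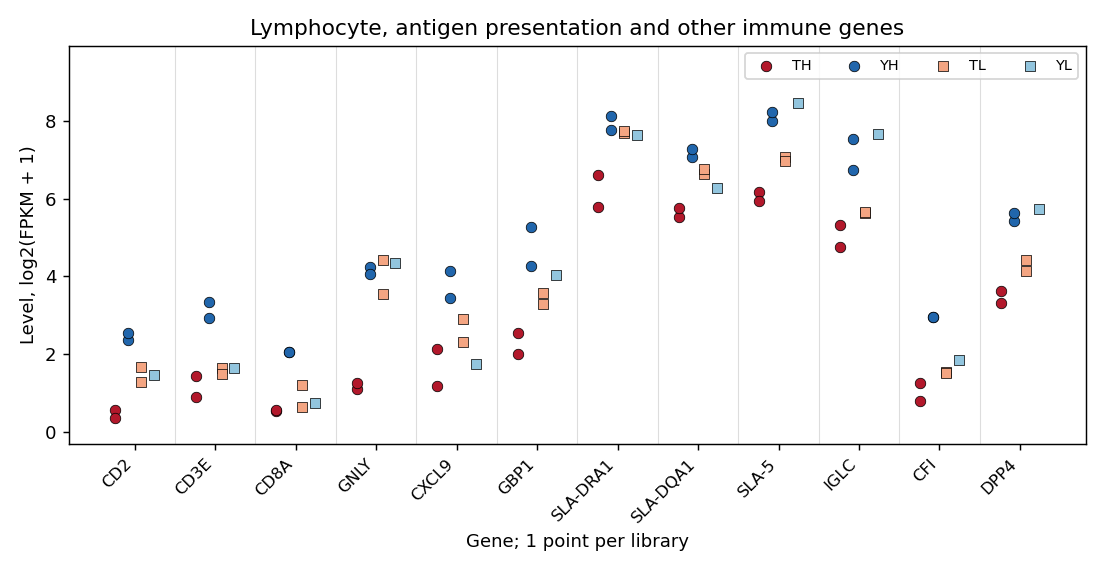
Levels of 12 immune genes called lower in TH, as log2(FPKM + 1), 1 point per library, for TH and YH (circles) and TL1, TL2 and YL1 (squares). Both TH circles lie below both YH circles in each gene, and for CD2, CD3E, CD8A and CFI the lowland squares lie between them.

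Antigen presentation followed. SLA-5, a class I gene of the pig's major histocompatibility complex (chromosome 7, 24683604 to 24687412), was at 71.3 FPKM in TH1, 60.9 in TH2, 255 in YH1 and 299 in YH2 (log2 fold change -2.05 ± 0.21, adjusted p = 0.0208). SLA-DQA1, a class II chain, was at 45.3 FPKM in TH1, 53.2 in TH2, 133 in YH1 and 153 in YH2 (log2 fold change -1.52 ± 0.20, adjusted p = 0.0286). Both groups were tight and far apart. Of 13 SLA and antigen presentation genes 2 were thus called lower and none higher, with a median of -0.75, while SLA-2, a classical class I gene, was on the other side at 251 FPKM in TH1, 261 in TH2, 159 in YH1 and 141 in YH2 (log2 fold change 0.77 ± 0.23, adjusted p = 0.115). After scaling to equal FPKM sums the log2 fold change of SLA-2 was -0.21. SLA genes are close copies of each other, and reads of one can be counted to another.

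Interferon-stimulated genes had 28 of 29 members with a log2 fold change below 0 and a median of -0.66, and 2 were called lower. GBP1, a guanylate-binding protein, was at 3.04 FPKM in TH1, 4.86 in TH2, 37.9 in YH1 and 18.3 in YH2 (log2 fold change -2.49 ± 0.36, adjusted p = 0.0327). OAS2, a sensor of double-stranded RNA, was at 5.42 FPKM in TH1, 5.79 in TH2, 12.7 in YH1 and 14.6 in YH2 (log2 fold change -1.14 ± 0.19, adjusted p = 0.0371). The TH libraries were below the YH libraries in both, and the YH libraries of GBP1 differed from each other. CXCL10, a chemokine induced by interferon, was at 8.01 FPKM in TH1, 3.17 in TH2, 138 in YH1 and 21.5 in YH2, and YH1 was far above YH2 (log2 fold change -3.19 ± 0.82, adjusted p = 0.0836). The median of the list was -0.30 without YH1.

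Of 21 chemokines and cytokines 4 were called lower (1.79% of all genes were) and none higher (median -0.57). Of the 21, 5 had passed the filter only through YH, which left 2 called of 16 without them (median -0.33). CXCL9, another interferon-induced chemokine, was at 3.39 FPKM in TH1, 1.28 in TH2, 16.6 in YH1 and 9.92 in YH2 (log2 fold change -2.13 ± 0.40, adjusted p = 0.0444). CXCR3 (0.0399 and 0.196 against 1.27 and 1.44 FPKM), a receptor of T cells, and CXCL16 (1.46 and 1.38 against 5.03 and 3.92 FPKM) were called lower as well. CCL2, which draws monocytes, stood on the other side at 156 FPKM in TH1, 91.2 in TH2, 12.1 in YH1 and 52.5 in YH2 and did not pass (log2 fold change 2.19 ± 0.67, adjusted p = 0.121). Among 26 complement and coagulation genes, CFI, the protease that inactivates C3b, (1.4 and 0.732 against 6.81 and 6.78 FPKM, log2 fold change -1.94 ± 0.21, adjusted p = 0.0234) and C2 (0.281 and 0.555 against 1.93 and 2.58 FPKM, log2 fold change -1.20 ± 0.22, adjusted p = 0.0438, with the filter passed only through YH) were called lower and none was called higher. Of the 26, 5 had both TH libraries above both YH libraries, against 25.6% of all genes.

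DPP4, a surface peptidase that trims chemokines and incretins (chromosome 15, 76152547 to 76235571), was the called gene of 8 dipeptidyl peptidase genes. It was at 11.3 FPKM in TH1, 9.01 in TH2, 41.9 in YH1 and 48.9 in YH2 (log2 fold change -2.06 ± 0.21, adjusted p = 0.0208), and both libraries of each breed were close together. The largest fall with a symbol was GP1BB, a subunit of the platelet receptor of von Willebrand factor, at 5.46 FPKM in TH1, 2.57 in TH2, 46.7 in YH1 and 68.8 in YH2 (log2 fold change -3.59 ± 0.41, adjusted p = 0.0234). CES1, a carboxylesterase, was at 1.24 FPKM in TH1, 2.01 in TH2, 13.9 in YH1 and 32 in YH2 (log2 fold change -3.10 ± 0.38, adjusted p = 0.0276). IGF2, the fetal growth factor, was at 10.4 FPKM in TH1, 19.6 in TH2, 64 in YH1 and 118 in YH2 (log2 fold change -2.52 ± 0.38, adjusted p = 0.0344). NT5C1A, which makes adenosine from AMP in the cytosol, was at 1.37 FPKM in TH1, 3.96 in TH2, 23.1 in YH1 and 17.3 in YH2 (log2 fold change -2.61 ± 0.36, adjusted p = 0.0297). Every TH value was below every YH value in these 4 genes. Rows of immunoglobulin light chains, IGLV-9 (log2 fold change -3.28, adjusted p = 0.0208) and IGLV-3 (0 and 0 against 4.4 and 9.09 FPKM), also belong to the 12 largest falls. Of the 199 genes called lower 31 had no symbol, with the largest falls in ENSSSCG00000025934 (0.518 and 1.04 against 13.2 and 11.2 FPKM) and ENSSSCG00000026162 (0 and 0.14 against 5.54 and 5.37 FPKM).

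Oxygen sensing showed no called gene. Of 10 genes of the HIF pathway none was called, at a median of -0.12. EGLN3, a prolyl hydroxylase that HIF itself induces, came nearest, at 35.2 FPKM in TH1, 29.2 in TH2, 81.2 in YH1 and 56.5 in YH2, all TH below all YH (log2 fold change -1.06 ± 0.24, adjusted p = 0.0664). EPAS1, or HIF-2 alpha, was at 37.7 FPKM in TH1, 57.6 in TH2, 59.9 in YH1 and 50.7 in YH2 (log2 fold change -0.24 ± 0.25, adjusted p = 0.577), and the groups overlapped. None of 27 hypoxia-induced genes was called either (median 0.10). VEGFA, the main growth factor of vessels, was at 56.4 FPKM in TH1, 53.6 in TH2, 82 in YH1 and 77.4 in YH2 (log2 fold change -0.53 ± 0.26, adjusted p = 0.263). FGF1, the called gene of 15 VEGF, angiopoietin and FGF genes, was lower, at 15.3 FPKM in TH1, 18 in TH2, 61.8 in YH1 and 42.9 in YH2 (log2 fold change -1.58 ± 0.25, adjusted p = 0.0358).

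No globin gene was called. HBB was at 1708 FPKM in TH1, 876 in TH2, 599 in YH1 and 534 in YH2 (log2 fold change 1.11 ± 0.35, adjusted p = 0.124) and HBA at 1376 FPKM in TH1, 745 in TH2, 459 in YH1 and 490 in YH2 (log2 fold change 1.09 ± 0.34, adjusted p = 0.124). TH1 was the highest in both. All 4 red blood cell genes tested had both TH libraries above both YH libraries, as 25.6% of all genes did. Their median was 1.07, 0.55 without TH1 and 0.11 after scaling to equal FPKM sums, and how much blood the tissue held was not tested.

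In the renin-angiotensin system MME was the called gene of 9. AGT, the precursor of angiotensin, was at 53.1 FPKM in TH1, 41.7 in TH2, 80.2 in YH1 and 70.9 in YH2, with TH below YH and no call (log2 fold change -0.67 ± 0.24, adjusted p = 0.151). CRYAB, the small heat shock protein of muscle, was at 6494 FPKM in TH1, 4239 in TH2, 1692 in YH1 and 3200 in YH2 (log2 fold change 1.17 ± 0.41, adjusted p = 0.147), and A2M, a protease inhibitor of plasma, was at 29 FPKM in TH1, 9.15 in TH2, 26.9 in YH1 and 58.7 in YH2 with overlapping groups (log2 fold change -1.23 ± 0.55, adjusted p = 0.226). None of 21 heat shock genes was called. Of the 21 genes that the study lists as potential key genes, a list it chose on these samples, 8 were called higher here (ANXA2, ATF3, CTGF, DUSP1, FOS, NPPA, NPPB and TGFB2), 3 lower (DECR1, DPP4 and FGF1) and 10 were not called, 8 of these with groups that did not overlap, as in 53.3% of all genes tested.

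Several lists of general cell function held no called gene. These were the lists of insulin, AKT, AMPK and mTOR signaling (36 genes, median -0.11), antioxidant defense (29 genes, median -0.07), the proteasome (28 genes, median 0.23) and cardiac transcription factors (24 genes, median -0.07). Also among them were globins and heme (20 genes, median 0.24), the circadian clock (19 genes, median -0.18) and creatine kinase and its shuttle (12 genes, median -0.06). After scaling to equal FPKM sums the median was -0.65 for the proteasome and -0.38 for globins and heme. Of 18 genes of calcium cycling in the sarcoplasmic reticulum SLN was the called one, and the median was -0.19. Among markers of other cells, PLIN4, a coat protein of lipid droplets, was called lower of 2 adipocyte genes tested (2.65 and 3.58 against 9.24 and 9.02 FPKM, log2 fold change -1.31 ± 0.19, adjusted p = 0.0334). No gene was called of 14 smooth muscle and pericyte rows, 4 liver genes, 2 epicardial genes, 2 B and plasma cell genes and 1 gene of Schwann cells and neurons.

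**Figure D5:**
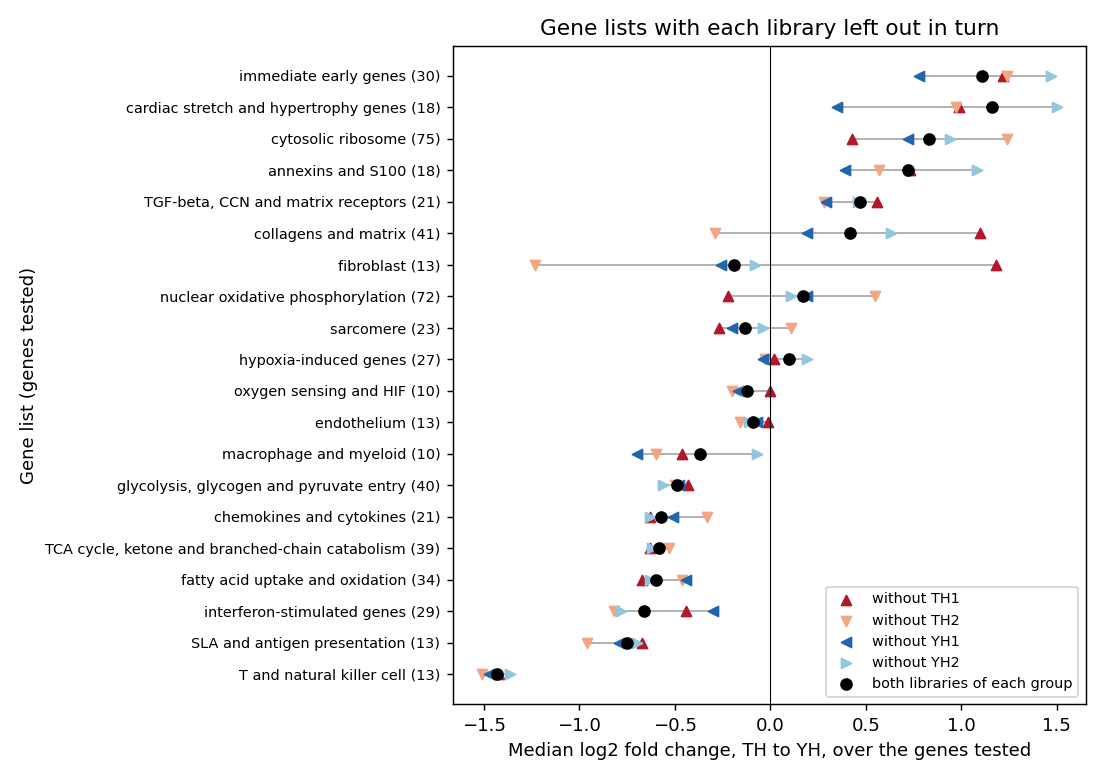
Median log2 fold change of TH to YH over the tested genes of 20 lists (black points), and the same with each library left out in turn (coloured triangles, joined by a line from the lowest to the highest). The lymphocyte, SLA and fuel lists stay below 0 and the early genes above 0 in every case (8 of the 13 lymphocyte markers had their direction set by the filter), while the fibroblast, collagen and respiratory chain lists change sign with the TH library left out.

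The breed difference at high altitude was set against that at low altitude as (TH - YH) - (TL - YL) in the same fit, in which YL is the single library YL1. No gene passed an adjusted p of 0.05 (0% called, 1500 at an unadjusted p under 0.05). The 5 lowest p-values were those of IGLV-8, CRTAC1, CHI3L1, SPAG11 and TNNT1. Of these, CHI3L1 and the called row of CRTAC1 had passed the filter only through TH. They were under 1 FPKM in TL1, TL2 and YL1. Their differences of differences thus largely repeat the change from TH to YH, whose direction the filter had set. For TNNT1, with 30.3 FPKM in TL1, 27.9 in TL2 and 124 in YL1, the difference of differences was 3.28 ± 0.36, adjusted p = 0.0981. For CHI3L1, with 0.137 FPKM in TL1, 0.0987 in TL2 and 0.117 in YL1, it was 2.74 ± 0.28, adjusted p = 0.0981. SPAG11 was at 0.464 FPKM in TL1, 0.269 in TL2 and 2.35 in YL1 (4.30 ± 0.46, adjusted p = 0.0981). In IGLV-8, an immunoglobulin row, the lowland values were 5.88 FPKM in TL1, 4.9 in TL2 and 0.473 in YL1 (-3.82 ± 0.30, adjusted p = 0.0635), and the called row of CRTAC1 was at 0 FPKM in TL1, 0.0235 in TL2 and 0.0356 in YL1 (2.92 ± 0.28, adjusted p = 0.0981).

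The 151 genes called higher at altitude had both TL libraries above YL1 in 107 cases (70.9%, against 45.8% of all genes tested) and below it in 33 (21.9%, against 36.1%). The 199 genes called lower had both TL libraries below YL1 in 82 cases (41.2%, against 36.1% of all genes) and above it in 74 (37.2%, against 45.8%). FOS, SLPI, EGR1 and CTGF belong to the 107, and NPPB, SLN, HAMP and MYL7 do not. DPP4 (16.5 FPKM in TL1, 20.3 in TL2 and 52.3 in YL1) and SLA-5 (133 FPKM in TL1, 125 in TL2 and 351 in YL1) belong to the 82, and PFKM (299 FPKM in TL1, 387 in TL2 and 235 in YL1) does not. With 1 YL library these are descriptions with no test.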

How the data were processed

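Heart RNA of 4 groups, Tibetan and Yorkshire pigs at high (TH, YH) and low altitude (TL, YL), was sequenced in 2 libraries per group, each a pool of 4 pigs. According to the methods and processing notes, TruSeq libraries were read as paired ends on an Illumina HiSeq, aligned to Sscrofa10.2 with TopHat2 2.0.9 and Bowtie 0.12.5, and quantified with Cufflinks. The FPKM values are those deposited by the authors per library. The columns of read numbers that the authors deposited are a signal scaled between libraries, with values that are not whole, so no count model was run on them; the authors' DESeq 1.10.1 is named in the processing notes. Of their other columns, 8 hold group means, ratios and tests of the authors' comparisons and were not used.

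Genes with at least 1 FPKM and at least 10 scaled reads in 2 of the 4 highland libraries were tested with limma 3.58.1 (R 4.3.3) on log2(FPKM + 1) as described in the report. Tables were made with pandas 2.3.3 and numpy 2.4.6 under Python 3.11.15, and plots with matplotlib 3.10.9. The fit was run before use on simulated normal values with 1 spread per gene shared by all groups. In the data TH1 and TH2 differed more than YH1 and YH2 (median absolute difference 0.40 against 0.19 on the log2 scale). The simulation held no such difference in spread and cannot show how the fit deals with it. Symbols were those of the tables for 14256 genes and of the reference names for 1025, and 3694 genes have an ID only. The members, the gene lists and the tests were chosen with earlier results of these data known, and 5 lists in the closing section after the calls were seen. Named are the 12 largest rises and falls without overlap among called genes, the called and at most 5 most abundant other members of each list, the 10 most abundant called genes per direction, the 21 genes of a table of the study, and the 5 lowest p-values of the difference between altitudes, and other genes named in the text were picked after their values were seen. No sequence of these genes was used here, and some called genes are not reported here. Pseudocount, filter, scaling, libraries in the fit, threshold, replicate block and the use of scaled reads were varied. The methods call the 2 pools of a group biological replicates, and p-values measure only the spread between pools.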

Additional observations from a re-analysis of the deposited data

Results flagged for a closer look

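The lowland library YL2, which no comparison here uses apart from the alternative with all 8 libraries, held a signal of kidney genes. Its kidney markers summed to 4748 FPKM, against at most 17.2 FPKM in the highland libraries. Its adipocyte markers summed to 1521 FPKM, of which PCK1, a gene that kidney also expresses, made 1499 FPKM.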

How the results depend on the processing

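The calls rest on 2 libraries a group and on the spread within the TH, YH and TL pairs, and most alternatives change their number. Against 151 genes higher and 199 lower in TH, the counts were 73 and 106 with a pseudocount of 0.1, 13 and 12 with no filter on low values, 121 and 117 with a mean of at least 10 FPKM, and 108 and 135 with at least 1 FPKM in all 4 libraries. They were 101 and 159 with median-ratio scaling, 16 and 87 after scaling to equal FPKM sums, 59 and 80 with that sum taken without mitochondrial genes, 24 and 19 with all 8 libraries, 14 and 10 with the 4 alone, and 142 and 194 with no trend. An adjusted p under 0.01 left 2 and 1, leaving out the fold threshold gave 156 and 203, and an unadjusted p under 0.01 gave 321 and 388. Alternatives chosen after seeing the data, log2(scaled reads + 1) with 7 and with 4 libraries, gave 137 and 162, and 46 and 41. With 1 library left out the counts ran from 0 to 774 higher and from 0 to 1322 lower, with 0 in both directions without YH1 or without YH2. Of 143 named called genes, 110 were still called with median-ratio scaling, 44 with the FPKM sum, 110 on scaled reads (47 with 4 libraries), 12 with no filter, 21 with the 4 libraries alone, 32 with all 8, 87 without TH1, 141 without TH2 and 0 without either YH library. The cause of these shifts was not tested.

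The difference between altitudes, with 0 genes, gave 2 with a pseudocount of 0.1 and 1 on scaled reads. With the replicate number as a block, 134 genes were higher and 203 lower, of which 116 and 172 are among those above. The deviations of libraries of the same number correlated at 0.182 between TH and YH, 0.024 between TH and TL and 0.045 between YH and TL, and the numbers were not taken as a pairing, since not every pair was over 0.1.

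Of 51 list medians, 28 changed sign under at least 1 alternative. With the FPKM sum, under which the median of all genes was -0.53, 16 did, those of the natriuretic peptide system (-0.60), TGF-beta and CCN genes (-0.40), annexins and S100 (-0.10), the ribosome (-0.16), globins and heme (-0.38), atrial markers (-0.10), smooth muscle (-0.58), secretory genes (-0.06), heat shock genes (-0.69), the Z-disc (-0.78), hypoxia-induced genes (-0.52), collagens (-0.32), the respiratory chain (-0.80), mitochondrially encoded genes (-0.53), the mitochondrial ribosome (-0.69) and the proteasome (-0.65). Median-ratio scaling and the sum without mitochondrial genes each turned 2, the Z-disc (-0.07 and -0.08) and hypoxia-induced genes (-0.03 and -0.04). Single genes that turned with the sum over all genes were SLA-2 (-0.21) and 1 row of COL1A1 (-0.32, otherwise 0.59). The early genes had medians of 0.24 with the sum over all genes and 1.82 with a mean of at least 10 FPKM, and from 0.78 to 1.47 with 1 library left out. The median of the TCA, ketone and branched-chain genes was -1.37 with the FPKM sum, -0.73 without mitochondrial genes in it, -0.70 with median-ratio scaling and -0.51 on scaled reads. The median of the T and natural killer markers was -2.52 with a pseudocount of 0.1, -1.10 with a mean of at least 10 FPKM, -1.22 with 1 FPKM in all 4, -0.92 and -1.67 with the FPKM sum with and without mitochondrial genes, and -2.86 on scaled reads. A mean of at least 10 FPKM turned 8 medians, those of cardiac transcription factors (0.08), ion channels (0.04), liver markers (-0.05), the renin-angiotensin system (0.29), creatine kinase (0.04), antioxidant genes (0.06), glucocorticoid targets (0.45) and the clock (0.28), and at least 1 FPKM in all 4 libraries turned 3 of these, the renin-angiotensin system (0.17), antioxidant genes (0.06) and liver markers (-0.05). Scaled reads turned 3, the dipeptidyl peptidases (0.03), renin-angiotensin system (0.05) and antioxidant genes (0.01), and ITGA5 (0.63, with -1.14 on FPKM).

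With 1 library left out in turn, 15 of the 51 medians changed sign, 6 without TH1, 5 without TH2, 6 without YH1 and 1 without YH2, and so did some genes. EPAS1 (0.06) and HIF1A (0.38, otherwise down to -1.55 without TH2) turned without TH1, and TNC (-0.51, up to 2.76 without TH1) turned without TH2. COL3A1 ran from -1.66 without TH2 to 1.52 without TH1, with 0.12 without YH2, and the COL1A1 rows from -2.41 to 1.71 and from -0.47 to 1.65. ITGA5 ran from -3.51 without YH1 to 1.23 without YH2, the natriuretic list from -0.04 without YH1 to 0.33 without YH2, and the HIF list from -0.20 without TH2 to 0.00 without TH1. The planned edgeR and DESeq2 tests were not run, since the deposited read numbers are scaled. Depth is known here only as an estimate from the scaled reads.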

Other observations

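Genes of DNA replication and cell division, a list made after the called genes were seen, had called members on the higher side in TH. Of 42 rows tested 17 were called higher and none lower, and 39 had a log2 fold change above 0, with a median of 0.85. Of the 42, 15 had both YH libraries under 1 FPKM and passed the filter only through TH, so that it fixed their direction. Of the other 27, 6 were called higher and none lower, with a median of 0.72. CDC25B, a phosphatase that starts mitosis, was at 33.2 FPKM in TH1, 27.9 in TH2, 9.61 in YH1 and 6.7 in YH2 (log2 fold change 1.80 ± 0.23, adjusted p = 0.0283). CDKN3, a phosphatase of cyclin-dependent kinases, was at 20.7 FPKM in TH1, 12.1 in TH2, 1.57 in YH1 and 3.77 in YH2 (log2 fold change 2.27 ± 0.38, adjusted p = 0.0385). H2AFZ, a histone variant (61.5 and 36.8 against 16.6 and 17.4 FPKM), STMN1, which destabilizes microtubules (30.6 and 36.2 against 15.6 and 15.9 FPKM), RFC4, a subunit of the clamp loader (7.87 and 5.49 against 2.4 and 2.37 FPKM), and LMNB1, a lamin (3.81 and 4.49 against 0.973 and 1.26 FPKM), were the other 4. Among the genes that passed only through TH were MCM4, a subunit of the replicative helicase, at 3.97 FPKM in TH1, 4.19 in TH2, 0.324 in YH1 and 0.604 in YH2, and E2F1, the factor that opens S phase, at 4.48 FPKM in TH1, 2.66 in TH2, 0.464 in YH1 and 0.537 in YH2. PCNA, the sliding clamp, was at 17.3 FPKM in TH1, 16.6 in TH2, 7.55 in YH1 and 9.45 in YH2 and was not called (log2 fold change 0.92 ± 0.19, adjusted p = 0.0554). Since the list was made from the calls, its counts are a description with no test.

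Cytoskeletal and secretory genes were described in the same way, from lists also made after the calls were seen. Of 29 rows of tubulins and cortical actin genes, 13 were called higher and none lower (median 1.22), and without 1 row that had passed the filter only through TH 12 of 28 were called (median 1.19). TUBB, a beta-tubulin, was at 326 FPKM in TH1, 335 in TH2, 106 in YH1 and 143 in YH2 (log2 fold change 1.41 ± 0.23, adjusted p = 0.0371), VIM, or vimentin, at 324 FPKM in TH1, 337 in TH2, 92 in YH1 and 131 in YH2 (log2 fold change 1.58 ± 0.24, adjusted p = 0.0343), and PFN1, or profilin, at 756 FPKM in TH1, 454 in TH2, 177 in YH1 and 231 in YH2 (log2 fold change 1.53 ± 0.30, adjusted p = 0.0497). Of 31 rows of the secretory pathway and collagen maturation, 11 were called higher and none lower (median 0.84, and -0.06 after scaling to equal FPKM sums), and without 2 rows that had passed the filter only through TH, CTHRC1 among them, 10 of 29 were called. LOXL1, which crosslinks elastin, was at 22 FPKM in TH1, 23 in TH2, 3.49 in YH1 and 4.72 in YH2 (log2 fold change 2.21 ± 0.20, adjusted p = 0.0185), CTHRC1, a secreted collagen-like protein, at 2.67 FPKM in TH1, 3.89 in TH2, 0.207 in YH1 and 0.101 in YH2 (log2 fold change 1.88 ± 0.21, adjusted p = 0.0234), and SSR4, a subunit of the translocon, at 292 FPKM in TH1, 197 in TH2, 85.4 in YH1 and 95.9 in YH2 (log2 fold change 1.40 ± 0.25, adjusted p = 0.0414).

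Rows of immunoglobulin chains and a set of SLA class II rows, lists also made after the calls were seen, were lower in TH. All 6 immunoglobulin rows of the list were called lower (1.79% of all genes were), with a median of -2.08, although 4 of them had passed the filter only through YH. IGLC, the constant region of the lambda chain, was at 38.8 FPKM in TH1, 25.9 in TH2, 105 in YH1 and 183 in YH2 (log2 fold change -2.09 ± 0.32, adjusted p = 0.0346). All 5 class II rows of the list, SLA-DQA1 among them, were called lower, with a median of -1.52. SLA-DMA, a class II row outside the list, was tested and not called. Since both lists were made from the calls, their counts are a description with no test. SLA-DRA1 was at 54.4 FPKM in TH1, 97 in TH2, 217 in YH1 and 279 in YH2 (log2 fold change -1.75 ± 0.31, adjusted p = 0.0429). In the lowlands SLA-DRA1 was at 207 FPKM in TL1, 213 in TL2 and 197 in YL1, near the YH values. Both families have many near-identical copies, among which reads can be shared.

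The share of called genes fell with transcript length, taken as scaled reads per FPKM. Of 4 classes of equal size, that of the shortest transcripts had 1.77% called higher and 2.7% lower, and that of the longest had 0.612% and 0.865%.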
